A study of Mus musculus with 6 samples.

Results

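A small set of genes in HCT116 cells, an established human colorectal carcinoma line, was close to undetected in one form of the line and detected in every library of the other. The 2 forms were parental cells and cells labelled resistant to oxaliplatin, a platinum drug that damages DNA and is given against colorectal cancer. A gene was taken when its mean CPM (read counts scaled to the total count of the library, in counts per 1000000) was at most 0.25 in one form and its CPM was at least 1 in all 3 libraries of the other. Genes with symbols starting ZNF, COL or HOX, and TTN and CSRNP3, were left out by name, which removed COL24A1, ZNF229 and CSRNP3. This left 51 genes of 30616 rows with a human gene identifier. Of these, 37 were switched on, meaning near silent in parental cells and detected in resistant cells, which is 0.123% of the 29961 rows open to the rule. The other 14 were switched off, meaning detected in parental cells and near silent in resistant cells, which is 0.0467% of those rows. The genes were chosen by their measured CPM in these same 6 libraries, so their levels are described here without a test.

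Parental and resistant cells were each sequenced as 3 bulk RNA libraries made from total RNA. The study's stated question was which genes confer resistance to oxaliplatin, and its title names AKR1C1 and STAT3. The labels give no genotype change and leave out how resistance was obtained, whether the resistant cells are 1 clone or a pool, or whether drug was present at harvest. They also do not say whether libraries of a form came from separate cultures. The p-values thus set the difference between the forms against a spread of libraries that may be only technical.

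Whether a gene is read at all in a cell depends on the transcription factors present and on how its promoter is packed into chromatin, and in tumour lines many genes of other tissues lie silent under DNA methylation or compact chromatin. Genes that pass from silent to active in a cell line can be tissue genes, such as ion channels of neurons, proteases of skin or cytokines of immune cells. DNA methylation and chromatin were not analysed here. In bulk RNA a low level can come from a few cells with much RNA of a gene or from many cells with little of it, and fewer cells of a type and less RNA per cell cannot be told apart.

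Total counts per library ran from 20246878 to 32138423, and 3 counts, taken as the smallest number that counts as detection, equal 0.0933 to 0.148 CPM at these depths. Intervals and floors cover counting error only. No 2 libraries held identical columns. Of 14 markers of colorectal epithelium 11 reached a mean of 1 CPM, with summed levels of 3045 to 3391 CPM in parental and 2903 to 3045 CPM in resistant libraries, while CDX1, VIL1 and KRT20 did not reach it. KRT8, KRT18 and KRT19 made up most of these sums. Lower in resistant cells (edgeR, adjusted p under 0.05) were EPCAM, KRT8, KRT18, CLDN3, CLDN4, CLDN7, ELF3 and ESRP1, the last from 157 to 87.5 CPM. CDH1, KRT19 and KRT20 were higher, and CDX2 passed neither side. Markers of fibroblasts summed to 21.9 to 25 CPM in parental and 40.6 to 46.7 CPM in resistant libraries. COL1A1 made up nearly all of that sum, and DCN and LUM had at most 1 count in any library. PDGFRB and COL3A1 were low but also higher in resistant cells, with means going from 0.156 to 0.587 CPM and from 0.0226 to 0.318 CPM. COL1A2, PDGFRA, THY1 and FAP had at most 2 counts in any library. Markers of leukocytes summed to 13.0 to 13.3 and 17.9 to 20.4 CPM, mostly from CD68, and PTPRC had at most 2 counts in any library. Markers of neurons summed to 137 to 155 CPM in parental and 166 to 173 CPM in resistant libraries, mostly from TUBB3 and MAP2. Their means moved apart: MAP2 rose from 12.1 to 51.2 CPM and SNAP25 from 0.506 to 2.70 CPM in resistant cells. TUBB3 fell from 131 to 114 CPM. SYP had means of 2.21 CPM in parental and 1.73 CPM in resistant cells, with overlapping libraries (edgeR adjusted p = 0.11). RBFOX3 and NEFL had at most 2 counts in any library. Endothelial markers summed to 0.938 to 1.62 CPM over all libraries and muscle markers to 1.12 to 2.71 CPM. The part of these differences in the switched genes was not tested.

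"Detected in only one form" held in the strict sense for few of the genes. Of the 37 switched-on genes, 2 had no count in any parental library, 2 had 1 to 3 counts over the 3 parental libraries together, and 33 had more. At least 1 count in every parental library was found for 29 of them, and more than 3 counts in every parental library for 7. Of the 14 switched-off genes none was at 0 in all resistant libraries, 2 had 1 to 3 counts in all and 12 had more. Most of the genes thus had a low level in the near-silent form and a level many times higher in the other.

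The sets were even across libraries as sums. The switched-on genes together held 5.46, 4.82 and 5.38 CPM in parental replicates 1 to 3 and 93.8, 91.1 and 95.5 CPM in resistant replicates 1 to 3. The switched-off genes together held 34.1, 32.7 and 34.3 CPM in the parental libraries and 1.71, 1.37 and 1.87 CPM in the resistant ones. The rule asked for at least 1 CPM in every expressing library, so some evenness of these sums was fixed in advance.

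**Figure D1:**
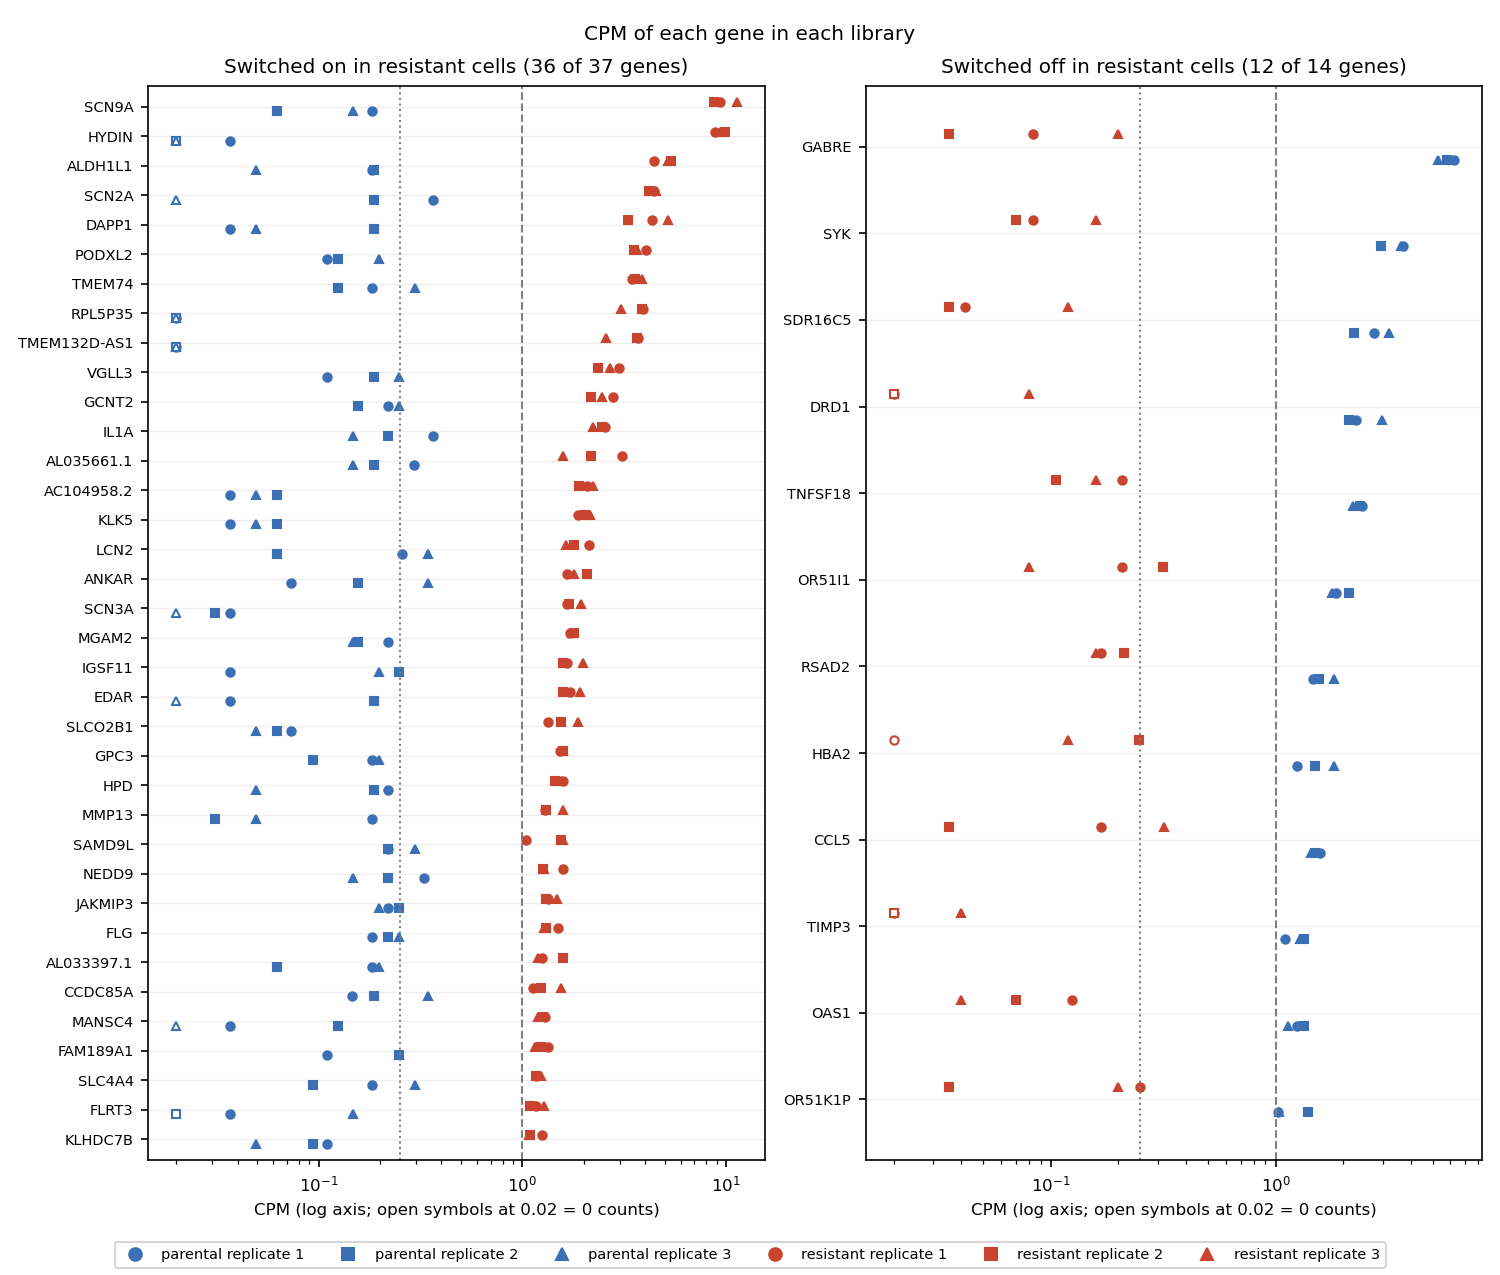
CPM of 36 of the 37 switched-on (left) and 12 of the 14 switched-off (right) genes in each library, on a log axis, with parental libraries in blue, resistant libraries in red and a symbol per replicate; open symbols mark 0 counts. The dotted and dashed lines are the limits of 0.25 and 1 CPM, and the libraries of the 2 forms do not overlap for any gene shown, as the rule requires.

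The limits cut through a continuous range of genes. On the silent side, the switched-on genes closest to the limit had parental means of 0.245 CPM (SAMD9L), 0.244 CPM (IL1A) and 0.232 CPM (NEDD9). Just outside lay SPARC at 0.251 CPM, HAS2 at 0.251 CPM and PMEPA1 at 0.260 CPM. On the expressing side the lowest resistant library was at 1.04 CPM for SAMD9L, 1.07 CPM for KLHDC7B and 1.09 CPM for FLRT3, against 0.955 CPM for FBXW10, 0.879 CPM for TSLP and 0.875 CPM for OSGEPL1-AS1 outside. Among switched-off genes the silent means nearest to the limit were 0.201 CPM (OR51I1) and 0.179 CPM (RSAD2), and those just past it were 0.285 CPM (CFB), 0.286 CPM (AC126365.1) and 0.292 CPM (AC008761.3). Their lowest parental library was at 1.03 CPM for OR51K1P, 1.10 CPM for TIMP3 and 1.14 CPM for OAS1, against 0.952 CPM for CPQ, 0.902 CPM for LINC01405 and 0.871 CPM for SLC25A48 outside. The step from 0.201 to 0.285 CPM on the silent side of the switched-off genes amounts to a few counts per library, so it was not taken as a gap.

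Membership of a few genes hung on 1 library. CCDC85A and ANKAR fell outside the limits without parental replicate 1, LCN2 without parental replicate 2, and NEDD9 and SCN2A without parental replicate 3. SAMD9L fell outside without parental replicate 1 or 2, and IL1A without parental replicate 2 or 3. OR51I1 was the only switched-off gene lost in this way, without resistant replicate 3.

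**Figure D2:**
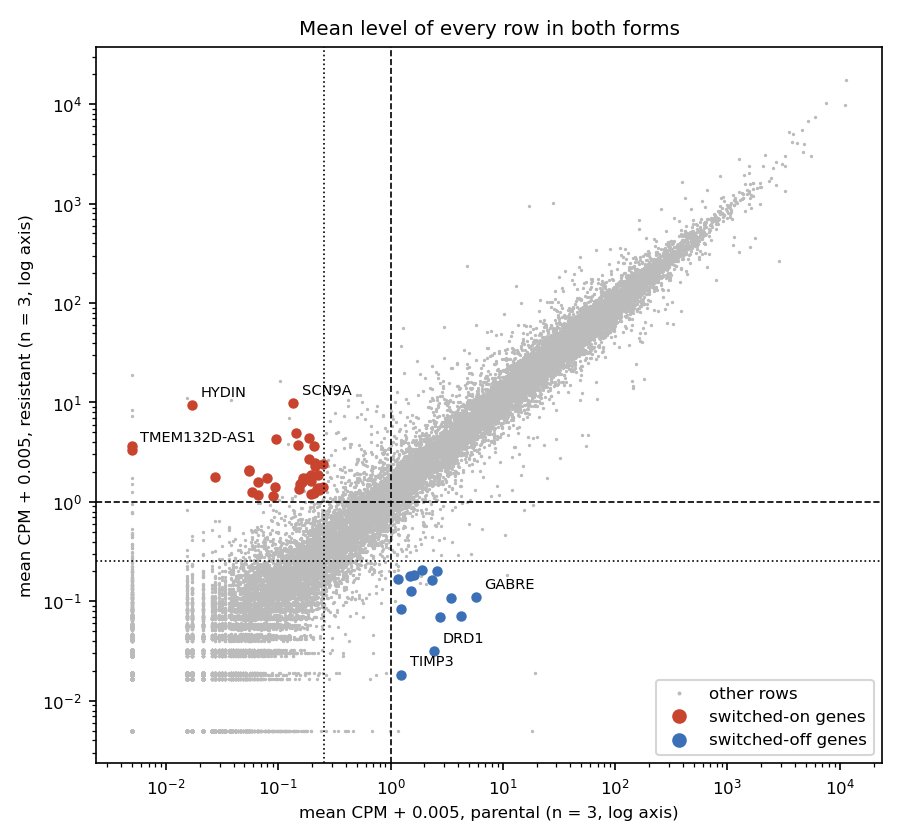
Mean CPM in parental (x axis) and resistant (y axis) libraries for rows of the table, both on log axes after adding 0.005, with the switched-on genes in red and the switched-off genes in blue. Grey points inside the limits are gene models without an identifier, rows left out by name, or rows under 1 CPM in a library of the expressing form.

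Switched-on genes had low to moderate levels in resistant cells. Their mean resistant level ran from 1.14 to 9.78 CPM with a median of 1.75 CPM, and only 2 genes passed 5 CPM. Set per length, as deposited FPKM (fragments adjusted for the length of the gene, so that genes can be set against each other), the resistant level ran from 0.107 for FLG to 15.5 for TMEM132D-AS1, with a median of 0.787 and 15 genes at 1 or more. The ratio of summed counts, scaled to the total counts, had a median of 12.9 over the 37 genes. The 2 genes at 0 were placed at a floor of 3 parental counts. The ratio was under 10 for 13 genes, from 10 to under 30 for 15 and higher or at 0 for 9. The resistant libraries were close to each other, with a median ratio of 1.18 between the highest and the lowest library. For SCN9A, DAPP1 and AL035661.1 some of the 3 resistant libraries lay apart beyond their 95% counting intervals.

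**Figure D3:**
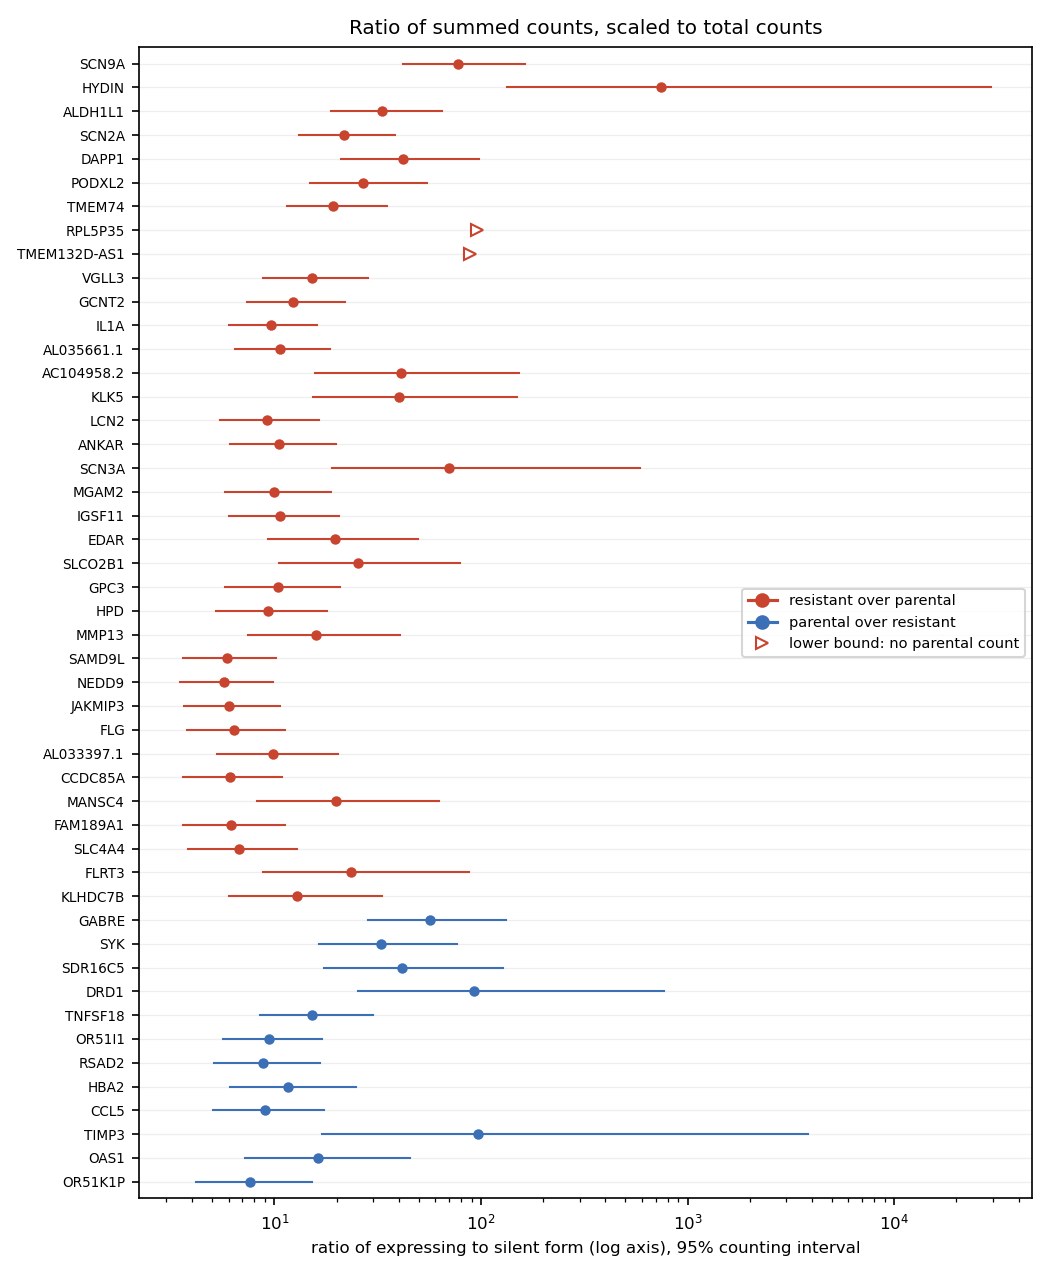
Ratio of the summed counts of the expressing form to those of the near-silent form for the same 36 and 12 genes, scaled to total counts, on a log axis with 95% exact counting intervals; red is resistant over parental and blue parental over resistant. Open triangles are lower bounds for RPL5P35 and TMEM132D-AS1, which had no parental count, and the wide intervals of HYDIN, SCN3A, DRD1 and TIMP3 go with 1 or 2 counts in the near-silent form.

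Sodium channels led the switched-on genes. SCN9A, SCN2A and SCN3A encode pore-forming alpha subunits of voltage-gated sodium channels, which carry the upstroke of the action potential in neurons. SCN9A (ENSG00000169432.15) had 5, 2 and 3 counts in parental replicates 1 to 3 and stood at 9.36, 8.72 and 11.3 CPM in the resistant ones, a mean of 9.78 ± 1.32 CPM (SD, n = 3). Its summed count was 77.6-fold higher in resistant cells (95% counting interval 42.0 to 163). SCN2A had 10, 6 and 0 parental counts and 4.41, 4.19 and 4.54 CPM in the resistant libraries, a ratio of 21.8 (13.2 to 38.5). SCN3A had 1, 1 and 0 parental counts and 1.66, 1.69 and 1.95 CPM in the resistant libraries, and its ratio of 70.3 (19.1 to 587) was loosely bounded. All 3 channels were low in each parental library, and SCN2A was the least even, with its 16 parental counts in replicates 1 and 2.

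The resistant level of SCN9A was also the highest of the 3 per length, at 1.57 ± 0.40 FPKM, against 0.687 ± 0.140 for SCN2A and 0.283 ± 0.081 for SCN3A (SD, n = 3). In the human genome these 3 genes belong with SCN1A and SCN7A to a cluster on the long arm of chromosome 2. SCN1A, too low for the rule, had no parental count and 9, 14 and 11 resistant counts, at least 11.6-fold higher with 3 counts over the parental group as the floor. SCN7A had no parental count and 1 in each resistant library. CSRNP3 and TTN, excluded by name and from the same arm, went from 0 to 8.49 CPM and from 4.84 to 237 CPM in the means of the 3 libraries. The sodium channel genes outside the cluster had other values: SCN8A rose from 20.3 ± 1.8 to 27.6 ± 0.5 CPM (log2 fold change 0.35 ± 0.07 SE, edgeR quasi-likelihood test, adjusted p = 0.00097), and SCN4A did not pass the threshold (0.48 ± 0.25, adjusted p = 0.12).

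Transporters added SLCO2B1 and SLC4A4. SLCO2B1, which takes up organic anions and drugs into cells, had 2, 2 and 1 parental counts and 1.33, 1.55 and 1.87 CPM in resistant libraries, a ratio of 25.3 (10.5 to 79.2). SLC4A4, a sodium bicarbonate cotransporter, had 5, 3 and 6 parental counts and 1.16, 1.16 and 1.23 CPM in resistant libraries, a ratio of 6.75 (3.82 to 12.8). The resistant libraries of SLC4A4 were nearly level, while those of SLCO2B1 spread more.

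HYDIN had the largest ratio among genes with a parental count. It encodes a protein of the central apparatus of motile cilia. HYDIN (ENSG00000157423.18) had 1, 0 and 0 parental counts and 213, 280 and 235 resistant counts, which are 8.86, 9.85 and 9.35 CPM. The ratio was 748 with an interval of 134 to 29566, since it rests on 1 parental count, so its order of magnitude is loosely known. HYDIN is a long gene, and its resistant level per length was 0.95 ± 0.05 FPKM (SD, n = 3), below that of SCN9A. The genome holds a near-identical copy of HYDIN, and how the counting treated shared reads is not given in the sources used here, so the locus is uncertain.

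FLG, coding for filaggrin, which bundles keratin in the outer skin, had 5, 7 and 5 parental counts and 1.5, 1.30 and 1.27 CPM in resistant libraries. Its ratio of 6.34 (3.78 to 11.3) was among the lowest, and its level per length was the lowest of the switched-on genes.

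Among enzymes and proteases ALDH1L1 was the highest. It encodes formyltetrahydrofolate dehydrogenase, an enzyme of folate one-carbon metabolism, and had 5, 6 and 1 parental counts and 4.41, 5.35 and 5.17 CPM in resistant libraries, a ratio of 33.2 (18.8 to 64.8). At 3.0 ± 0.3 FPKM it was also among the higher switched-on genes per length. KLK5, a skin serine protease that starts the kallikrein cascade of shedding, had 1, 2 and 1 parental counts and 1.87, 2.04 and 2.15 CPM in resistant libraries, a ratio of 40.3 (15.4 to 150).

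MMP13, a collagenase, had 5, 1 and 1 parental counts and 1.29, 1.30 and 1.59 CPM in resistant libraries, with a ratio of 15.8 (7.43 to 40.3). GCNT2, the transferase that branches poly-lactosamine chains into the I antigen, had 6, 5 and 5 parental counts and 2.79, 2.18 and 2.47 CPM, with a ratio of 12.3 (7.36 to 21.9). Both had evenly high resistant libraries, and MMP13 had most of its parental counts in replicate 1. MGAM2, of the family of intestinal maltase-glucoamylase, went from a mean of 0.174 ± 0.039 to 1.75 ± 0.04 CPM, a ratio of 9.97 (5.74 to 18.7). HPD, which acts in tyrosine breakdown, went from 0.152 ± 0.090 to 1.52 ± 0.07 CPM, a ratio of 9.32 (5.25 to 18.0).

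Cell surface genes made up 7 of the switched-on genes. PODXL2, a sialomucin of the CD34 family, had 3, 4 and 4 parental counts and 4.04, 3.52 and 3.66 CPM in resistant libraries, a ratio of 27.0 (14.9 to 54.6). EDAR, the receptor for ectodysplasin that directs hair, tooth and gland formation, had 1, 6 and 0 parental counts and 1.71, 1.58 and 1.91 CPM, a ratio of 19.7 (9.28 to 49.8). Parental replicate 2 held most of EDAR's parental counts.

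The EDAR pathway around it did not show one pattern. EDA, its ligand, stood at 8.91 ± 0.62 CPM in parental and 9.88 ± 0.48 CPM in resistant libraries and did not pass the threshold, with a log2 fold change of 0.05 ± 0.09 (adjusted p = 0.65, edgeR). EDARADD, the adaptor that joins EDAR to downstream signalling, had at most 4 counts in any library. TNFRSF19, a related receptor, rose from 0.734 ± 0.050 to 8.23 ± 0.35 CPM (log2 fold change 3.39 ± 0.14, adjusted p = 3.3e-09).

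IGSF11, an immunoglobulin-family adhesion protein, had 1, 8 and 4 parental counts and 1.66, 1.58 and 1.99 CPM in resistant libraries. GPC3, a heparan sulfate proteoglycan of the glypican family, had 5, 3 and 4 parental counts and 1.54, 1.58 and 1.59 CPM. Their ratios were alike, at 10.7 for IGSF11 and 10.4 for GPC3, with overlapping intervals. FLRT3, a membrane protein that binds fibroblast growth factor receptors and guides adhesion, had 1, 0 and 3 parental counts and 1.16, 1.09 and 1.27 CPM, a ratio of 23.4 (8.82 to 87.6). MANSC4, a membrane protein, had 1, 4 and 0 parental counts and 1.29, 1.27 and 1.19 CPM, a ratio of 19.9 (8.25 to 62.7).

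Secreted immune proteins were represented by IL1A and LCN2. IL1A encodes the alarm cytokine interleukin 1 alpha and had 10, 7 and 3 parental counts and 2.54, 2.46 and 2.23 CPM in resistant libraries, with a ratio of 9.60 (6.04 to 16.1). LCN2, lipocalin 2, which binds bacterial iron carriers, had 7, 2 and 7 parental counts and 2.12, 1.79 and 1.63 CPM, with a ratio of 9.18 (5.46 to 16.5). Both kept a low level in every parental library. Per length LCN2, at 3.96 ± 0.76 FPKM, was among the higher switched-on genes.

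Of the intracellular regulators DAPP1 was the highest. It is an adaptor that binds phosphoinositides below B-cell and other receptors, and it had 1, 6 and 1 parental counts and 4.33, 3.31 and 5.17 CPM in resistant libraries, a ratio of 42.1 (21.1 to 98.3). VGLL3, a cofactor of TEAD transcription factors, had 3, 6 and 5 parental counts and 3.0, 2.36 and 2.71 CPM, a ratio of 15.2 (8.85 to 28.3). Resistant replicate 2 was the lowest of the 3 for both.

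NEDD9, a scaffold at focal adhesions, had 9, 7 and 3 parental counts and 1.58, 1.27 and 1.27 CPM in resistant libraries, and SAMD9L, an interferon-inducible protein that restrains growth and viruses, had 6, 7 and 6 parental counts and 1.04, 1.55 and 1.59 CPM. With ratios of 5.73 (3.49 to 9.89) and 5.89 (3.60 to 10.2) these were the 2 smallest changes among the switched-on genes.

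Among the remaining protein-coding genes TMEM74, a lysosomal membrane protein linked to autophagy, was the highest, with 5, 4 and 6 parental counts and 3.45, 3.59 and 3.86 CPM in resistant libraries, a ratio of 19.3 (11.5 to 35.0). ANKAR went from 0.192 ± 0.140 to 1.84 ± 0.21 CPM, a ratio of 10.6. KLHDC7B, a kelch-domain protein, had 3, 3 and 1 parental counts and 1.25, 1.09 and 1.07 CPM, a ratio of 12.9 (6.01 to 33.0). JAKMIP3, CCDC85A and FAM189A1 had ratios of 6.05, 6.10 and 6.16, with mean resistant levels of 1.37, 1.30 and 1.24 CPM. These last 3 were thus close to NEDD9 and SAMD9L in size of change.

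The only switched-on genes without any parental count were not protein-coding. RPL5P35 (ENSG00000214727.2), a pseudogene of the ribosomal protein gene RPL5, had 94, 110 and 77 resistant counts, which are 3.91, 3.87 and 3.06 CPM. With 3 counts over the parental group as the floor it was 96.2-fold higher in resistant cells. TMEM132D-AS1 (ENSG00000249196.6), an antisense RNA of TMEM132D, had 89, 104 and 65 resistant counts, which are 3.70, 3.66 and 2.59 CPM. At the same floor it was 88.3-fold higher. Per length they had the highest resistant levels of the set, at 15.5 ± 3.8 FPKM for TMEM132D-AS1 and 7.32 ± 0.94 FPKM for RPL5P35.

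RPL5P35 can share reads with RPL5, which stood at 802 ± 14 CPM in parental and 674 ± 17 CPM in resistant libraries and fell by 0.34 on the log2 scale (edgeR adjusted p = 2.6e-05), so its level is uncertain. Strand was not given either, so reads of TMEM132D-AS1 and of TMEM132D, which was not analysed here, cannot be told apart. The clone-named genes AL035661.1, AC104958.2 and AL033397.1 had mean resistant levels of 2.28, 2.07 and 1.34 CPM and ratios of 10.6, 41.1 and 9.80. AL035661.1 had the widest spread of all switched-on genes, with 3.08, 2.18 and 1.59 CPM in resistant replicates 1 to 3.

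Switched-off genes were fewer and had similar levels in their expressing form. Their mean parental level ran from 1.15 to 5.78 CPM with a median of 2.13 CPM, and per length from 0.29 for TIMP3 to 6.5 for HBA2, with a median of 1.78 FPKM and 9 genes at 1 or more. The ratio of summed counts had a median of 15.7 and ran from 7.63 for OR51K1P to 96.4 for TIMP3. For none of them did the parental libraries lie apart beyond their counting intervals.

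GABRE, the epsilon subunit of the GABA type A receptor, a chloride channel, was the highest switched-off gene. GABRE (ENSG00000102287.19) stood at 6.23, 5.82 and 5.28 CPM in parental replicates 1 to 3 and had 2, 1 and 5 counts in the resistant ones, a ratio of 56.5 (28.4 to 132). DRD1, the dopamine receptor that raises cyclic AMP, had 62, 68 and 60 parental counts, which are 2.27, 2.12 and 2.96 CPM, and 0, 0 and 2 resistant counts, a ratio of 92.5 (25.3 to 769). Both receptors are best known from neurons, and each had at most 5 counts in any resistant library.

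SYK is a regulator among the switched-off genes. This tyrosine kinase below immune receptors, which epithelial cells also carry, stood at 3.70, 2.96 and 3.61 CPM in parental libraries and had 2, 2 and 4 resistant counts, a ratio of 32.7 (16.4 to 76.6). ZAP70, its close relative, had at most 4 counts in any library.

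SDR16C5, a retinol dehydrogenase of the short-chain family, stood at 2.75, 2.24 and 3.21 CPM in parental libraries and had 1, 1 and 3 resistant counts, a ratio of 41.3 (17.4 to 128). It was thus at or under the floor of 3 counts in every resistant library.

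The interferon-induced enzymes RSAD2 and OAS1 were near the lower limit in parental cells. RSAD2, or viperin, which makes an antiviral nucleotide, stood at 1.47, 1.56 and 1.83 CPM and had 4, 6 and 4 resistant counts, a ratio of 8.83 (5.08 to 16.6). OAS1, which senses double-stranded RNA and makes oligoadenylate, stood at 1.25, 1.34 and 1.14 CPM and had 3, 2 and 1 resistant counts, a ratio of 16.2 (7.20 to 45.3). Both other relatives of OAS1 tested were lower in resistant cells, beside 26.5% of all genes tested. OASL fell from 50.3 ± 1.5 to 4.66 ± 0.53 CPM (log2 fold change -3.52 ± 0.08 SE, edgeR adjusted p = 2.7e-11) and OAS3 fell from 129 ± 8 to 101 ± 3 CPM (-0.46 ± 0.06, adjusted p = 3.2e-05). CMPK2, the neighbour of RSAD2, chosen after its values were seen, fell from 3.78 ± 0.37 to 1.87 ± 0.74 CPM (-1.12 ± 0.26, adjusted p = 0.0039). SAMD9L, also interferon-inducible, was on the opposite side, among the switched-on genes.

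Secreted and surface signals switched off were TNFSF18, CCL5 and TIMP3. TNFSF18, the ligand of the T-cell receptor GITR, stood at 2.42, 2.36 and 2.22 CPM in parental libraries and had 5, 3 and 4 resistant counts, a ratio of 15.2 (8.48 to 29.9). CCL5, a chemokine that draws T cells, stood at 1.57, 1.49 and 1.43 CPM and had 4, 1 and 8 resistant counts, a ratio of 8.99 (5.06 to 17.4). TIMP3, the matrix-bound inhibitor of metalloproteinases, had 30, 43 and 26 parental counts and 0, 0 and 1 resistant counts, a ratio of 96.4 (16.9 to 3846) that rests on 1 count. The chemokine was the least even of the 3, with resistant replicate 3 the highest of its near-silent libraries.

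HBA2, an alpha-globin gene, stood at 1.25, 1.49 and 1.83 CPM in parental libraries and had 0, 7 and 3 resistant counts, a ratio of 11.6 (6.09 to 24.8). HBA1, which encodes the same protein, had 6, 14 and 6 parental counts and 1, 0 and 4 resistant counts, and reads of the 2 copies can be exchanged, so the split between them is uncertain. OR51I1, an olfactory receptor gene, stood at 1.87, 2.12 and 1.78 CPM and had 5, 9 and 2 resistant counts, a ratio of 9.43 (5.63 to 16.9). OR51K1P, an olfactory receptor pseudogene, stood at 1.03, 1.40 and 1.04 CPM and had 6, 1 and 5 resistant counts, a ratio of 7.63 (4.17 to 15.3). These were among the smaller changes of the switched-off genes.

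OR51I1 and OR51K1P belong to a large run of olfactory receptor genes that lies around the beta-globin genes. The table held 23 rows of the OR51 and OR52 families, chosen here after their values were seen. Of the 21 that the rule did not take, 11 could be tested, and 10 of these 11 were lower in resistant cells at an adjusted p under 0.05 and by at least 2-fold, while over all 16605 genes tested 26.5% were lower and 2.57% were lower by at least 2-fold. OR51B5, the most abundant, stood at 70.1, 59.4 and 71.6 CPM in parental and 28.6, 27.6 and 26.7 CPM in resistant libraries, a log2 fold change of -1.37 ± 0.07 SE (edgeR adjusted p = 1.8e-08). OR51I2 fell by 2.20 on the log2 scale (adjusted p = 4.7e-06), OR52D1 fell by 2.89 (adjusted p = 5.9e-07) and OR51A10P fell by 3.24 (adjusted p = 8.8e-05). OR52A1 did not pass the threshold (0.21 ± 0.35, adjusted p = 0.64). Some of the 10 lower genes, OR51A10P, OR51B3P and OR51B8P among them, passed the low-count filter of the test mainly through the parental form. The count of 10 is thus not free of this limit.

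The globin genes in that run, HBE1 and HBG2, were lower as well. HBE1 fell from 40.5 ± 2.0 to 21.6 ± 0.6 CPM (log2 fold change -1.0 ± 0.06 SE, edgeR adjusted p = 8.3e-08) and HBG2 from 1.58 ± 0.46 to 0.879 ± 0.073 CPM (-0.92 ± 0.25, adjusted p = 0.0093). Whether these gene models overlap, so that 1 transcript is counted for several genes, was not tested.

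**Figure D4:**
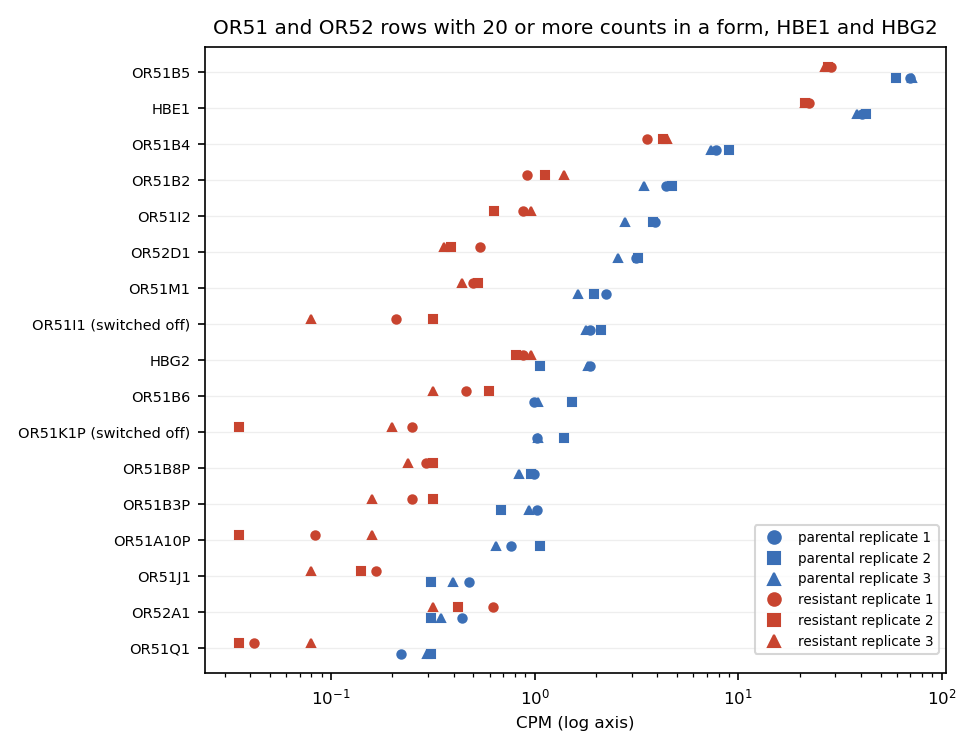
CPM in each library, on a log axis, of the OR51 and OR52 rows with 20 or more counts in a form and of HBE1 and HBG2, with parental libraries in blue and resistant libraries in red. The resistant libraries lie below the parental ones in every row shown except OR52A1, whose libraries overlap.

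The rule did not use the relatives of the switched genes, which were therefore tested. All 51 switched genes passed the filter on low counts, but they did so through the form in which they were high, so the relatives are described in their place. Some relatives, among them MMP1, KLHDC7A, SLCO5A1 and CCL26, also passed it mainly through one form. They are within the counts below, so those counts are not free of this limit. The 37 switched-on genes had 60 tested relatives in their gene families, of which 23 (38.3%) were higher in resistant cells, 20 (33.3%) lower and 17 past neither side at an adjusted p under 0.05. Over all genes tested 27.3% were higher, 26.5% lower and 53.8% either. At least 2-fold higher were 13 (21.7%) and at least 2-fold lower 5 (8.33%), against 5.58% and 2.57% of all genes tested. The median log2 fold change of these relatives was 0.12, against 0.02 over all genes. The 14 switched-off genes had 17 tested relatives, of which 4 were higher, 7 lower and 6 past neither side, with a median of -0.03. Relatives thus went both ways in either set.

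Several relatives rose with a switched-on gene. HRNR, hornerin of the skin barrier like filaggrin, rose from 0.369 ± 0.248 to 4.30 ± 0.30 CPM (log2 fold change 3.34 ± 0.29 SE, edgeR adjusted p = 3e-06). KLK6 rose from 5.17 ± 0.40 to 19.97 ± 1.71 CPM (1.85 ± 0.09, adjusted p = 1.8e-08) and KLK10 from 3.35 ± 0.18 to 10.7 ± 0.1 CPM (1.58 ± 0.10, adjusted p = 1.1e-07), both kallikrein proteases like KLK5. In the same family KLK7 rose by 0.46 on the log2 scale, KLK8 fell by 0.58 and KLK1 fell by 1.56, so the kallikreins did not move as one.

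Of 9 other metalloproteinases tested besides MMP13, 5 were higher, 2 lower and 2 past neither side, beside 27.3% higher and 26.5% lower over all genes tested. MMP19 rose from 1.02 ± 0.02 to 5.84 ± 0.89 CPM (log2 fold change 2.42 ± 0.17 SE, edgeR adjusted p = 2.4e-07), and MMP14, a membrane-bound activator of other metalloproteinases, from 16.9 ± 1.3 to 28.0 ± 0.1 CPM (0.63 ± 0.07, adjusted p = 1.3e-05). MMP1, a collagenase, went from 1, 1 and 0 to 20, 14 and 15 counts, a ratio of 25.2 (6.60 to 214). MMP10 and MMP16 had no parental count and 15 and 17 counts over the resistant libraries, at least 5.13-fold and 5.82-fold higher. MMP25 went the other way, from 2.76 ± 0.66 to 0.847 ± 0.167 CPM (-1.78 ± 0.23, adjusted p = 5.6e-05), as did MMP11 (-0.55 ± 0.13, adjusted p = 0.0045). Of the inhibitors related to TIMP3, which was switched off, TIMP2 rose from 151 ± 3 to 220 ± 3 CPM (0.45 ± 0.04, adjusted p = 2.5e-06) and TIMP1 did not pass the threshold (0.02 ± 0.06, adjusted p = 0.86).

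MGAM, the close relative of MGAM2, rose from 0.857 ± 0.196 to 2.40 ± 0.22 CPM (log2 fold change 1.37 ± 0.21 SE, edgeR adjusted p = 0.00016), and reads of the similar parts of both genes could be exchanged. FAM189A2 rose from 0.683 ± 0.130 to 3.0 ± 0.5 CPM (2.02 ± 0.22, adjusted p = 1.2e-05) while FAM189B fell from 61.0 ± 1.7 to 36.1 ± 0.9 CPM (-0.85 ± 0.05, adjusted p = 6.5e-08). PLEKHA2, a phosphoinositide-binding protein like DAPP1, rose from 18.4 ± 1.3 to 54.4 ± 0.7 CPM (1.47 ± 0.06, adjusted p = 2.7e-09), and GPC2, a glypican like GPC3, rose from 4.05 ± 0.37 to 9.10 ± 0.37 CPM (1.07 ± 0.10, adjusted p = 5.1e-06).

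In other families the relative moved against the switched gene. KLHDC7A, the pair of KLHDC7B, had 15, 22 and 15 parental counts and 0, 1 and 0 resistant counts, a 50.6-fold higher level in parental cells (8.70 to 2038). ALDH1L2, the mitochondrial counterpart of ALDH1L1, fell from 3.91 ± 0.49 to 2.64 ± 0.22 CPM (log2 fold change -0.65 ± 0.15 SE, edgeR adjusted p = 0.0028). IL18, a cytokine of the family of IL1A, fell from 52.4 ± 7.1 to 31.0 ± 2.9 CPM (-0.85 ± 0.10, adjusted p = 5.4e-05). SAMD9, the relative of SAMD9L, stood at 32.5 ± 2.1 and 29.3 ± 1.1 CPM (-0.24 ± 0.06, adjusted p = 0.0054).

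Among the organic anion transporters related to SLCO2B1, SLCO5A1 rose from 0.0903 ± 0.0790 to 0.799 ± 0.106 CPM (log2 fold change 2.85 ± 0.47 SE, edgeR adjusted p = 0.00034). SLCO1B3 fell from 43.2 ± 5.3 to 21.5 ± 0.8 CPM (-1.10 ± 0.09, adjusted p = 1.8e-06), and SLCO3A1 and SLCO4C1 fell by 0.90 and 1.22 on the log2 scale. Related to switched-off genes, DHRS3, which turns retinal back into retinol, rose from 7.33 ± 0.36 to 35.6 ± 0.2 CPM (2.18 ± 0.06, adjusted p = 1.6e-10), against the direction of SDR16C5. CCL26, a chemokine that draws eosinophils, went from 2, 1 and 2 to 15, 23 and 23 counts (3.45 ± 0.44, adjusted p = 4.6e-05), against the direction of CCL5. The GABA type A subunit genes GABRD, GABRP and GABRQ did not pass the threshold.

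**Figure D5:**
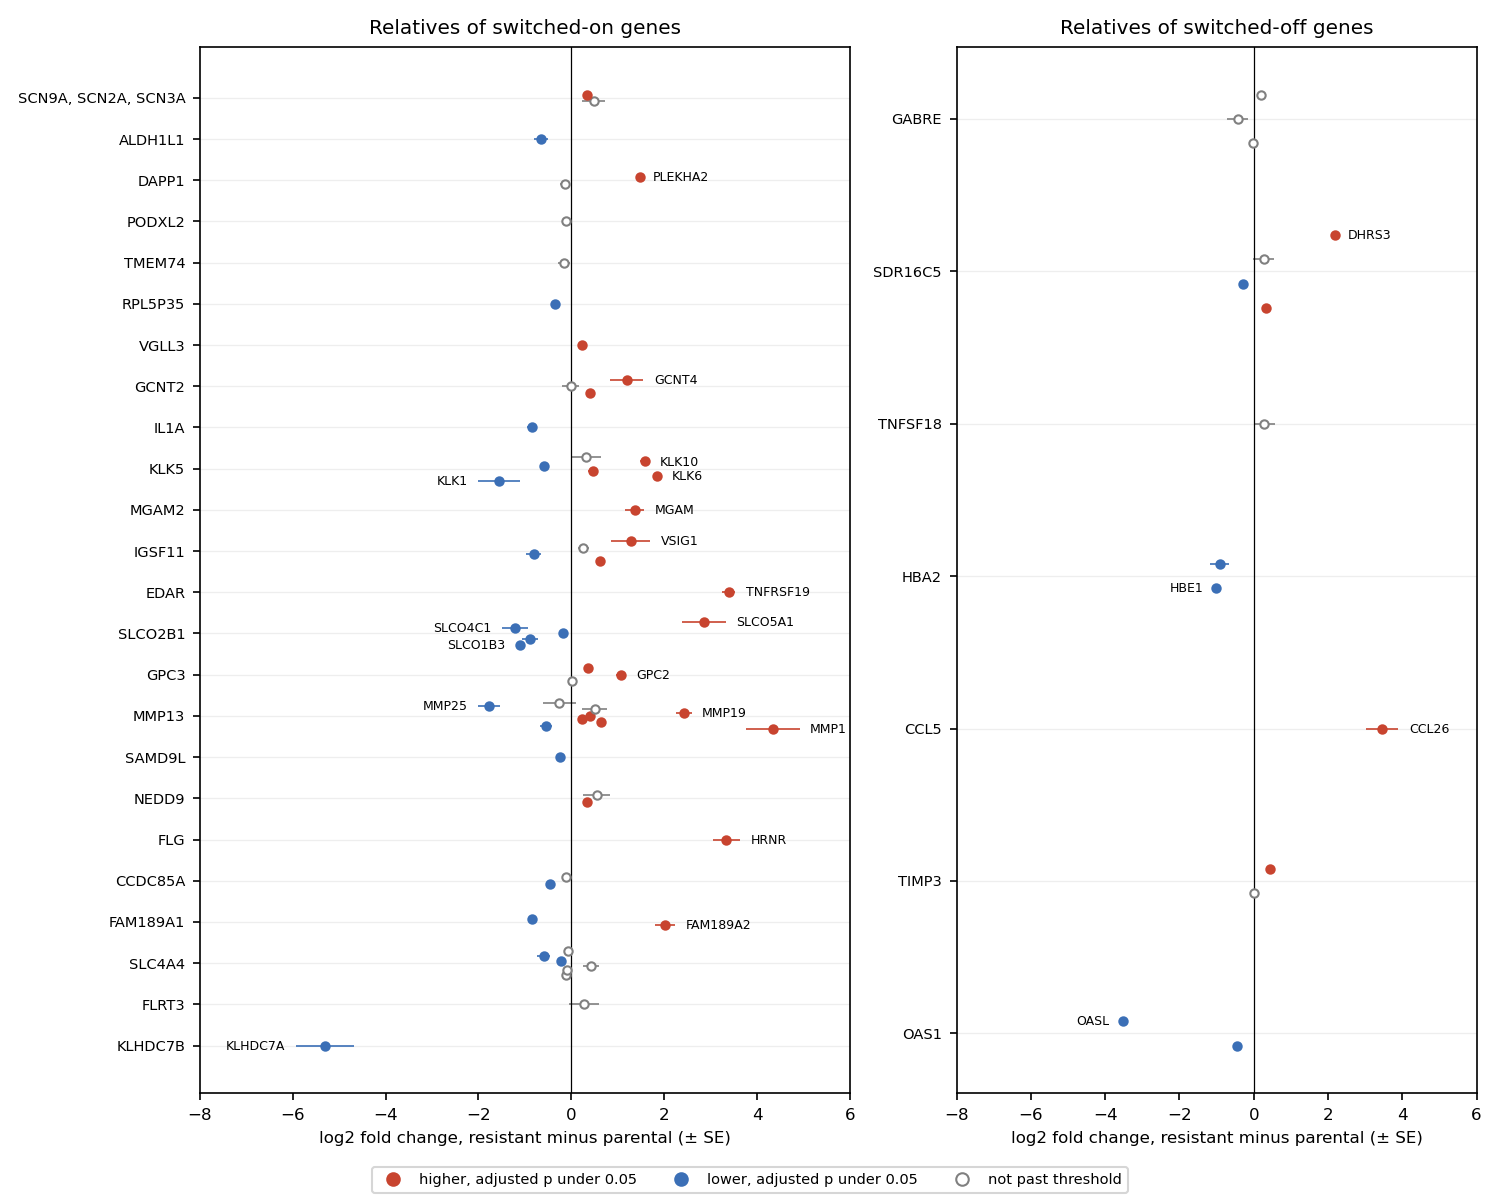
Log2 fold change, resistant minus parental, with its standard error, of tested relatives of a switched-on (left) or switched-off (right) gene, in rows by family; red is higher and blue lower at an adjusted p under 0.05 and open circles passed neither side. Points lie on both sides of 0 in both panels, with 13 relatives of switched-on genes at least 2-fold higher and 5 at least 2-fold lower; the fitted values of MMP1 and KLHDC7A rest on 3 or fewer counts in one form.

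Broader gene classes to which switched genes belong were counted without them, beside 27.3% higher and 26.5% lower over all genes tested. Of 57 other potassium, sodium and calcium channel genes tested, 14 were higher and 15 lower (median log2 fold change -0.04). Of 254 other solute carriers 76 were higher and 86 lower (median -0.06). Of 40 other interleukins, chemokines and receptors of either, 12 were higher and 9 lower (median -0.04). Of 22 other receptor subunits for glutamate, GABA or acetylcholine, 5 were higher and 4 lower (median 0.05). Of 20 other genes reported as methylated in colorectal tumours, the class of TIMP3, 11 were higher and 3 lower (median 0.42). In the first 4 classes genes went either way in similar numbers, and in the last more were higher than lower. As with the relatives, some of these genes passed the filter on low counts mainly through one form, so these counts are not free of that limit.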

How the data were processed

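The authors deposited whole-number read counts per gene without normalization. A second deposited table was taken as FPKM computed by the authors, a unit inferred from its values because its header names none. The sample descriptions tied columns to samples. Per the labels' protocols, a SMARTER mRNA-Seq kit was used. The labels name mouse as the organism, and GRCm38 and mm10 are the builds in the submitters' processing notes, but 30616 of 31456 rows carry human gene identifiers, so the identifiers were used as deposited and no coordinates or sequences are given. Not given in the sources used here: aligner, counter, annotation and strand. The other 840 rows are gene models with no identifier and were not eligible.

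CPM are counts divided by the column total, without further scaling. The ratios printed are those of summed counts scaled to total counts, with exact conditional binomial 95% intervals. For genes at 0 they are ratios with 3 counts over the group as a floor, which are not 95% limits. In FPKM terms, the factor between FPKM and CPM varied over 1.5-fold between expressing libraries for 6 switched-on and 4 switched-off genes. Relatives and gene classes were tested with edgeR 4.0.16 (R 4.3.3; deposited counts, TMM, filterByExpr, robust quasi-likelihood fit, two-sided, Benjamini-Hochberg over 16605 genes, threshold 0.05); 9806 genes had an unadjusted p under 0.05 and 53.8% passed the adjusted threshold. The SE of a log2 fold change was computed as its absolute value divided by the square root of the F statistic of its test. An exact permutation test over 3 and 3 libraries cannot go below p = 0.1, so none was made. Alternatives were other library scalings, other limits, DESeq2 1.42.0, no low-count filter, the replicate number as a block, and leaving out each library.

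The switched genes, their relatives and the 16 gene lists were chosen with earlier results of these data known. The rule for naming took the 15 highest genes of each direction, those on a list, and the 3 nearest to each limit on either side. A few switched genes and relatives are not reported here by name but are in every count; all others are described. The switched genes outside that rule, EDA, EDARADD, CMPK2, the relatives and the OR51 and OR52 genes were named after their values were seen. Counts for neighbouring genes and promoter base composition had been planned and were not run, since the reference given is of mouse.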

Additional observations from a re-analysis of the deposited data

How the results depend on the processing

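The number of switched genes depends on where the limits lie. With a silent limit of 0.1 CPM there were 13 switched-on and 5 switched-off genes, and with 0.5 CPM 108 and 36. With an expressing limit of 2 CPM there were 12 and 7, and with 0.5 CPM 100 and 42. The deposited FPKM under the same limits gave 38 and 19 genes, but only 12 and 5 were shared. TMM library sizes gave 35 and 14, losing IL1A and SAMD9L, and requiring 0.25 CPM in every silent library gave 27 and 12. Leaving out each library gave 37 to 41 and 14 to 17. Over the other scalings and left-out libraries, 130 of 408 log2 ratios of switched genes moved by more than 1 SD of the expressing libraries; their sign is fixed by the limits. Of 54 relatives past the threshold in 540 alternative fits none changed sign, and 17 fits in 5 genes, among them GCNT4, VSIG1, SLCO4A1 and SLC4A7, lost the call. The 10 lower olfactory receptor genes kept their call in all 100 alternative fits. With the replicate block, which joins same-numbered libraries, 5010 genes were higher and 4963 lower, against 4534 and 4399 without it, and among relatives of switched-on genes 24 and 24 against 23 and 20. Deviations of same-numbered libraries correlated at 0.074, 0.14 and 0.010, so the numbers were not taken as pairs, and resistant replicate 1 correlated best with parental replicate 3. Counts under about 3 per library limit every statement about the near-silent form.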

Other observations

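Some gene classes that could have held switched genes held none; over all genes tested 27.3% were higher and 26.5% lower in resistant cells. Of 9 cancer-testis antigens tested none passed the threshold in either direction (edgeR, adjusted p under 0.05; median log2 fold change -0.02), and of 27 imprinted genes 5 were higher and 11 lower (median -0.06). Both classes are silent on one or both alleles in most normal tissues. Of 10 other germline genes tested 5 were higher and none lower (median 0.35), and of 13 protocadherins 6 were higher and 3 lower (median 0.29).

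Serpins, which inhibit serine proteases, went mostly one way, with 13 of 16 tested higher in resistant cells and none lower (median log2 fold change 0.54, beside 0.02 over all genes tested, of which 27.3% were higher and 26.5% lower). Of 66 developmental transcription factors (SOX, forkhead, GATA, T-box, paired-box, POU, LIM and other homeobox families) 26 were higher and 8 lower (median 0.17). Of 50 adhesion and orphan G protein-coupled receptors 18 were higher and 10 lower (median 0.18), of 19 keratins 9 and 3 (median 0.19), of 48 tripartite motif genes 21 and 11 (median 0.08), and of 21 tetraspanins 9 and 4 (median 0.21). Cadherins and claudins, the proteins of epithelial junctions, had 5 of 16 higher and 7 lower (median 0.04). Some genes of these classes, among them SERPINF1, SERPINB7 and KRT16, were near silent in parental cells. They passed the filter on low counts through the resistant form, so the counts of these classes are not free of that limit.

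Gene models without an identifier also met the limits. In resistant cells 7 were switched on, with mean levels of 1.26 to 18.8 CPM, and 2 of them had no parental count. In parental cells 4 were detected, with mean levels of 2.06 to 19.5 CPM, and 1 of them had no resistant count. The highest of these models thus had levels above those of every identified switched gene, and what they encode was not analysed here.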
